A study of Mus musculus with 10 samples.

Results

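The nuclear genes for the subunits of oxidative phosphorylation were examined complex by complex in ribosome-bound RNA from mouse somatosensory cortex. They were the rows of the deposited count table whose Ensembl identifier belongs to a protein-coding gene with a symbol of the Nduf, Sdh, Uqcr, Cox4 to Cox8 or Atp5 series, leaving out Cox4i2 and pseudogenes. This gave 84 of 55536 rows: 37 of complex I, 4 of complex II, 8 of complex III, 17 of complex IV and 18 of complex V. Of these, 82 had enough counts to be tested. Cox8c and another identifier of Atp5o had 0 counts in all 10 libraries.

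The RNA came from translating ribosome affinity purification. A Cre-dependent virus, AAV5-EF1α-Flex-EGFPL10a, was injected into the part of the primary somatosensory cortex that the labels call S1DZ, and ribosomes carrying the GFP-tagged protein L10a were pulled down with an antibody against GFP 4 weeks later. There were 3 libraries from Il17rb-Cre mice, 3 from Il17ra-Cre mice and 4 from Il17rc-Cre mice, in which Cre comes from the gene of an interleukin-17 (IL-17) receptor subunit. The virus was given to all 3 groups, and there was no group without Cre or of whole tissue among the samples used here. The labels give no age, sex or strain background, and do not say whether replicates were separate animals, so p-values measure the spread between these libraries, which may be technical. The comparisons set the ribosome-bound RNA of cells marked by each receptor's driver side by side.

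Oxidative phosphorylation takes electrons from NADH (through complex I) and from succinate (through complex II), passes them over complexes III and IV to oxygen, and uses the proton gradient built on the way to make ATP in complex V. Complexes I, III, IV and V combine subunits encoded in the nucleus with subunits encoded in mitochondrial DNA, whereas complex II is encoded wholly in the nucleus and is also succinate dehydrogenase of the tricarboxylic acid (TCA) cycle. Neurons depend on this pathway for ion pumping and synaptic transmission. Some complex IV subunits exist as paralogs, a widely expressed form and a form known mainly from muscle, testis or lung.

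Total counts were 39692925 to 165844244 per library, and 21205 to 24790 genes had at least 1 count. The Il17ra-Cre libraries did not resemble each other closely. Rpl10a, the mouse gene of the tagged protein, was at 678.8 CPM (TMM-scaled CPM, a count relative to library size) in replicate 3 and at 58.7 and 70.9 CPM in replicates 1 and 2, and the members summed to 3.61% of all counts in replicate 3 and to 2.34% and 2.24% in replicates 1 and 2. Several group medians and list counts that rest on Il17ra-Cre libraries are therefore also given with some of these libraries left out. Counts and sums of cell markers are given with all libraries only. The transcript of Il17rc, at 1.89 CPM on average in Il17rb-Cre libraries, was at 29.4 CPM in Il17ra-Cre and 28.3 CPM in Il17rc-Cre libraries, and those of Il17ra and Il17rb were not higher in libraries of their own driver, so directions rest on the labels as deposited.

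The cells behind the libraries differed between groups. Of the markers of excitatory neurons, the main neurons of cortex, 7 of 8 were higher in Il17rb-Cre than in Il17ra-Cre and 8 of 8 were higher than in Il17rc-Cre, and their summed level was 17787 to 20859 CPM in Il17rb-Cre, 1564 to 6718 CPM in Il17ra-Cre and 2171 to 3591 CPM in Il17rc-Cre libraries. Pan-neuronal markers were higher in 6 of 8 and lower in 1 of 8 against Il17ra-Cre, and higher in 6 of 8 against Il17rc-Cre. Inhibitory neuron markers were higher in 5 of 8 against Il17ra-Cre, and higher in 2 and lower in 1 of 8 against Il17rc-Cre. All 8 astrocyte markers were lower in both comparisons, with sums of 362 to 392 CPM in Il17rb-Cre, 6333 to 10983 CPM in Il17ra-Cre and 9715 to 11491 CPM in Il17rc-Cre libraries. Oligodendrocyte markers were lower in 8 of 8 against Il17ra-Cre and in 1 of 8 against Il17rc-Cre, and their sum reached 43729 CPM in an Il17ra-Cre library against 1144 CPM at most in Il17rb-Cre libraries. Markers of oligodendrocyte precursors (6 and 5 of 6 lower), of microglia and macrophages (8 and 5 of 8), of endothelial cells (1 and 4 of 6) and of mural and fibroblast-like cells (6 and 8 of 8) also included lower calls and no higher call against Il17ra-Cre and Il17rc-Cre. Their sums in Il17rb-Cre libraries were at most 77.6, 18.3, 6.05 and 7.23 CPM, and Ptprc of the microglia and macrophage list was at 0 in all 3. The part of these cell differences in the results that follow was not tested, and in such bulk libraries fewer cells of a type and less RNA per cell cannot be told apart.

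As a whole, the members took 4.06%, 3.33% and 3.21% of all counts in Il17rb-Cre libraries, 2.34%, 2.24% and 3.61% in Il17ra-Cre libraries and 3.64%, 2.78%, 3.75% and 3.03% in Il17rc-Cre libraries, so the groups overlapped. Against Il17ra-Cre, edgeR's quasi-likelihood test (adjusted p under 0.05 over 20301 genes) called 12 of 82 members higher in Il17rb-Cre, 14.6%, where 16.4% of all tested genes were called higher, and 4 lower, 4.88%, where 24.4% of all tested genes were called lower. Against Il17rc-Cre it called 5 members higher, 6.10%, with 17.7% of all tested genes, and 6 lower, 7.32%, with 21.9% of all tested genes. Counts near or below those shares show no excess of calls among these genes. The median log2 fold change over members was 0.47 against Il17ra-Cre (interquartile range 0.18 to 0.64), with 69 of 82 above 0, beside a median of -0.09 over all tested genes, of which 9526 of 20301 lay above 0. Against Il17rc-Cre it was 0.25 (0.02 to 0.47), with 63 of 82 above 0, beside 0.02 over all tested genes, of which 10298 lay above 0. The 3 comparisons share libraries and are therefore not independent of each other.

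The median over members depended on particular libraries. Without Il17ra-Cre replicates 1 and 2 the median against Il17ra-Cre was 0.06. That fit leaves 1 library of the group and assumes that it varies like the others. Without Il17ra-Cre replicate 3 the median was 0.71 with 51 of 82 members called higher, beside 20.9% of all tested genes. Without Il17rc-Cre replicates 1 and 3 the median against Il17rc-Cre was 0.42, and without Il17rb-Cre replicate 1 it was 0.08. Without Il17rb-Cre replicate 1 no member was called higher by edgeR, beside 11.6% of all tested genes. In that fit 2 members reached an unadjusted p under 0.05 with a positive and 6 with a negative value, 4 of these called lower. Complex II and the large complex III subunits, described next, had values below 0 in all 12 fits with libraries left out. For the large complex III subunits the median against Il17ra-Cre ranged from -0.31 to -0.01 over these fits.

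**Figure D1:**
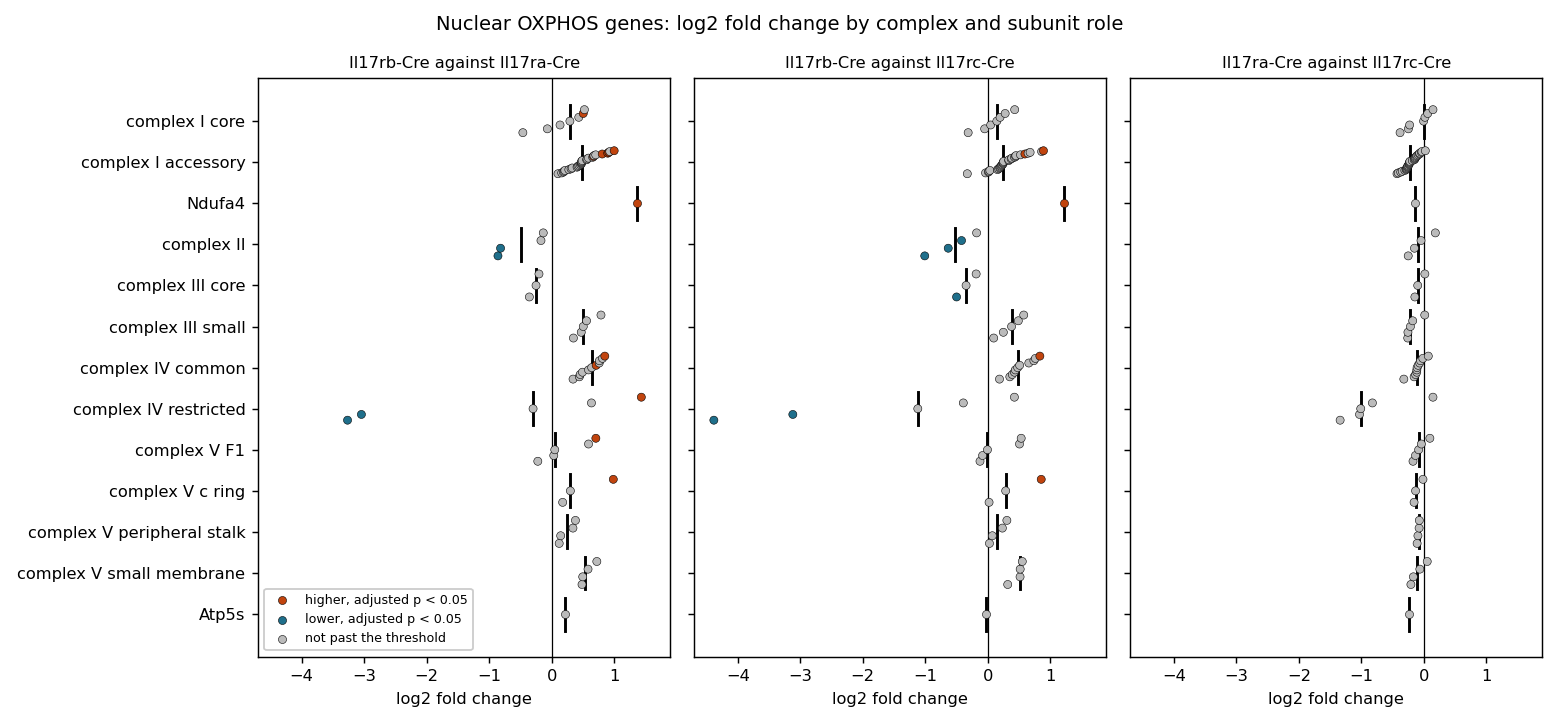
Log2 fold change (x axis) of the 82 tested members by complex and subunit role (rows) in the 3 comparisons. Points are genes, coloured where edgeR's adjusted p was under 0.05, and black bars are medians of a row. In the panels of Il17rb-Cre, complex II and complex III core lie left of 0 with medians of -0.49 and -0.25 against Il17ra-Cre and -0.53 and -0.35 against Il17rc-Cre, while the common complex IV subunits all lie right of 0.

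Complex II was lower in Il17rb-Cre libraries. Its 4 subunits together took 0.141%, 0.139% and 0.140% of all counts in Il17rb-Cre libraries, 0.196%, 0.182% and 0.188% in Il17ra-Cre libraries and 0.240%, 0.202%, 0.231% and 0.204% in Il17rc-Cre libraries. No Il17rb-Cre library reached the lowest library of the other groups. Against Il17ra-Cre 2 of 4 subunits and against Il17rc-Cre 3 of 4 subunits were called lower, beside 24.4% and 21.9% of all tested genes, and all 4 log2 fold changes were below 0 in each of 12 fits that left out libraries, with medians of -0.51 to -0.31 against Il17ra-Cre and -0.62 to -0.42 against Il17rc-Cre. With upper quartile scaling in place of TMM, 1 of the 4, Sdhb, was above 0 against Il17ra-Cre.

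Sdhc (ENSMUSG00000058076, GRCm38 chromosome 1, 171127165 to 171150603, minus strand), one of the membrane anchors that bind heme and ubiquinone, was the most separated of the 4. It was at 247, 228 and 228 CPM in Il17rb-Cre libraries, 467, 382 and 424 CPM in Il17ra-Cre libraries and 486, 463, 495 and 438 CPM in Il17rc-Cre libraries. The groups did not overlap between Il17rb-Cre and either of the others. The log2 fold change was -0.86 ± 0.13 (SE) against Il17ra-Cre (edgeR adjusted p = 0.000751) and -1.01 ± 0.13 against Il17rc-Cre (edgeR adjusted p = 0.000206), and the call held in all 20 and all 21 alternatives with a test.

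Sdha (chromosome 13, 74322254 to 74350280, minus strand), the flavoprotein that oxidizes succinate, was at 289, 378 and 364 CPM in Il17rb-Cre libraries, 735, 661 and 420.5 CPM in Il17ra-Cre libraries and 625, 481, 533 and 491 CPM in Il17rc-Cre libraries. All Il17rb-Cre libraries lay below all others, with Il17ra-Cre replicate 3 nearest to them. Its log2 fold change was -0.82 ± 0.22 against Il17ra-Cre (edgeR adjusted p = 0.0137) and -0.63 ± 0.21 against Il17rc-Cre (edgeR adjusted p = 0.0339). The first call did not hold when Il17ra-Cre replicate 1 or 2 or replicate 1 of Il17rb-Cre was left out (adjusted p up to 0.0665 over alternatives), and the other when any single Il17rb-Cre library or replicate 1 or 3 of Il17rc-Cre was left out (up to 0.153).

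Sdhd, the other membrane anchor (chromosome 9, 50596357 to 50603812, minus strand), was at 278.0, 274.7 and 275.2 CPM in Il17rb-Cre libraries, 299, 279 and 354 CPM in Il17ra-Cre libraries and 399.7, 330.5, 416 and 329 CPM in Il17rc-Cre libraries. Against Il17rc-Cre it was called lower (-0.42 ± 0.14 on the log2 scale, edgeR adjusted p = 0.0413) and did not pass against Il17ra-Cre (-0.17, edgeR adjusted p = 0.406). The call against Il17rc-Cre was lost without any single Il17rb-Cre replicate, without Il17rc-Cre replicate 1 or 3, and with upper quartile scaling, with adjusted p up to 0.196 over alternatives. Sdhb, the iron-sulfur subunit (chromosome 4, 140961203 to 140979193, plus strand), was at 643, 584 and 573 CPM in Il17rb-Cre libraries, 752, 592 and 629 CPM in Il17ra-Cre libraries and 697, 648, 742 and 626 CPM in Il17rc-Cre libraries. Its values overlapped between groups, and neither log2 fold change passed (-0.13 and -0.18, edgeR adjusted p = 0.496 and 0.325). Per kilobase of principal transcript, Sdhb was the highest of the 4 at 568 CPM per kb over all libraries and Sdhc the lowest at 122 CPM per kb. These means include the Il17rb-Cre libraries, where Sdhc was low. By mean CPM without length, Sdhd was the lowest at 323 CPM, with Sdhc at 386 CPM.

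In complex III, which moves electrons from ubiquinol to cytochrome c, the large subunits and the small ones lay on opposite sides of 0 with all libraries. The 2 core proteins Uqcrc1 and Uqcrc2 and the Rieske iron-sulfur protein Uqcrfs1 had log2 fold changes below 0 in both comparisons with Il17rb-Cre. These stayed below 0 in each of 12 fits with libraries left out. Their median of -0.25 against Il17ra-Cre was -0.01 without Il17ra-Cre replicates 1 and 2 and -0.31 without replicate 3. Uqcrfs1 was at 308, 276 and 274 CPM in Il17rb-Cre libraries, 352, 356 and 389 CPM in Il17ra-Cre libraries and 451, 333, 449.5 and 379 CPM in Il17rc-Cre libraries. No Il17rb-Cre library overlapped another group. Its log2 fold change passed against Il17rc-Cre (-0.50 ± 0.15, edgeR adjusted p = 0.0206) and did not against Il17ra-Cre (-0.36, edgeR adjusted p = 0.0902). The call was lost when replicate 2 or 3 of Il17rb-Cre or replicate 1 or 3 of Il17rc-Cre was left out (adjusted p up to 0.114 over alternatives) and with upper quartile scaling.

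Uqcrc1 was at 704, 716 and 711 CPM in Il17rb-Cre libraries, 813, 998 and 721 CPM in Il17ra-Cre libraries and 932, 1078, 845.5 and 755 CPM in Il17rc-Cre libraries, a spread of 6.14 CPM (SD) in the first group and 141 and 137 CPM in the others. Uqcrc2 was at 212, 207 and 211 CPM in Il17rb-Cre libraries, 265, 246 and 213 CPM in Il17ra-Cre libraries and 242, 233, 239 and 240.0 CPM in Il17rc-Cre libraries. Every Il17rb-Cre value of both genes was below every value of the other groups, but neither gene passed the test (edgeR adjusted p = 0.280 and 0.232 against Il17ra-Cre, 0.118 and 0.246 against Il17rc-Cre). Of the Uqcrc2 exons 19.7% overlap the gene Pdzd9, and without strand the reads of both cannot be told apart.

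The 5 small complex III subunits Uqcr10, Uqcr11, Uqcrb, Uqcrh and Uqcrq had log2 fold changes of 0.35 to 0.79 against Il17ra-Cre and 0.10 to 0.58 against Il17rc-Cre, and none passed. Uqcr11, the highest of the complex per kilobase (1259 CPM per kb), was at 874, 735 and 658 CPM in Il17rb-Cre libraries, 328, 295 and 686 CPM in Il17ra-Cre libraries and 630.3, 327, 678 and 389.9 CPM in Il17rc-Cre libraries. Il17ra-Cre replicate 3 lay within the range of the Il17rb-Cre libraries. Without Il17ra-Cre replicates 1 and 2 the median of the 5 against Il17ra-Cre was -0.07, and without replicate 3 it was 0.96.

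**Figure D2:**
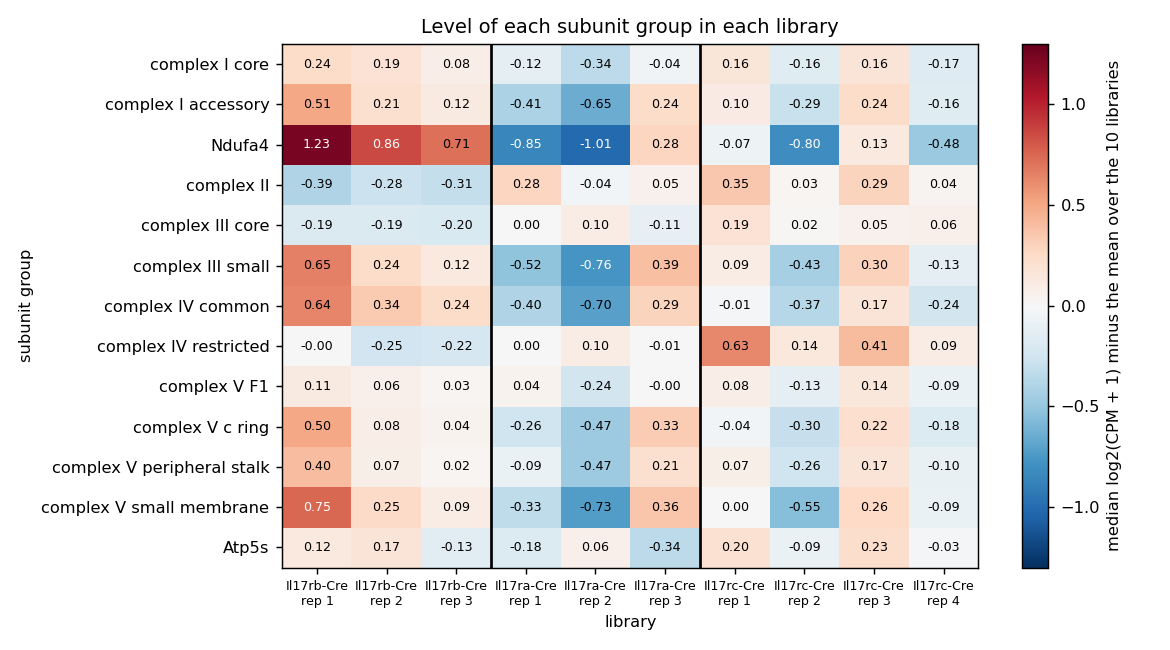
For each gene, log2(CPM + 1) was taken as the difference from that gene's mean over the 10 libraries. Colour and number give the median difference over the genes of each subunit group (rows) in each library (columns). Complex II was at -0.39, -0.28 and -0.31 in the Il17rb-Cre libraries and complex III core at -0.19, -0.19 and -0.20. The accessory complex I, small complex III, common complex IV and small membrane complex V subunits were low in Il17ra-Cre replicates 1 and 2. They were high in Il17ra-Cre replicate 3 and Il17rb-Cre replicate 1. They were also low in Il17rc-Cre replicate 2, at -0.29, -0.43, -0.37 and -0.55, and high in Il17rc-Cre replicate 3, at 0.24, 0.30, 0.17 and 0.26.

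Complex IV held the largest differences of all members, in the paralogs with restricted expression. Cox7a1 (ENSMUSG00000074218, GRCm38 chromosome 7, 30184144 to 30186078, plus strand), known as the heart and muscle form of subunit 7a, was at 3.36, 2.52 and 2.69 CPM in Il17rb-Cre libraries, 29.2, 21.2 and 32.0 CPM in Il17ra-Cre libraries and 22.0, 20.3, 30.3 and 26.7 CPM in Il17rc-Cre libraries. The Il17rb-Cre libraries were far below the others, without overlap. The log2 fold change was -3.27 ± 0.25 against Il17ra-Cre (edgeR adjusted p = 1.4e-05, 9.62-fold lower) and -3.12 ± 0.24 against Il17rc-Cre (edgeR adjusted p = 1.0e-05, 8.69-fold lower).

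Cox6b2 (ENSMUSG00000051811, chromosome 7, 4751792 to 4753094, minus strand), known as the testis form of subunit 6b, was at 5.89, 3.54 and 4.12 CPM in Il17rb-Cre libraries, 38.3, 34.8 and 38.5 CPM in Il17ra-Cre libraries and 144, 51.6, 116 and 64.2 CPM in Il17rc-Cre libraries. The 3 groups did not overlap, and the Il17rc-Cre libraries spread over the widest range. The log2 fold change was -3.04 ± 0.39 against Il17ra-Cre (edgeR adjusted p = 0.000250) and -4.38 ± 0.40 against Il17rc-Cre (edgeR adjusted p = 2.99e-05, 20.9-fold lower). The calls of Cox7a1 and Cox6b2 held in all 20 alternatives against Il17ra-Cre and all 21 against Il17rc-Cre.

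Of the 3 other tested restricted forms, Cox6a2 was the only one called. This gene, the heart and muscle form of subunit 6a (chromosome 7, 128205435 to 128206387, minus strand), was at 15.0, 9.88 and 14.3 CPM in Il17rb-Cre libraries, 2.53, 3.53 and 8.28 CPM in Il17ra-Cre libraries and 10.3, 8.08, 11.4 and 8.96 CPM in Il17rc-Cre libraries. It was higher in Il17rb-Cre than in Il17ra-Cre without overlap (log2 fold change 1.44 ± 0.41, edgeR adjusted p = 0.0172) and overlapped with Il17rc-Cre (0.43, edgeR adjusted p = 0.386). The call did not hold without replicate 2 of Il17ra-Cre or replicate 1 of Il17rb-Cre (adjusted p up to 0.0630), and 10.3% of its exons overlap Itgad. Cox7b2 and Cox8b reached at most 1.50 and 0.432 CPM in any library, and neither passed, with log2 fold changes of -0.30 (Cox8b) and 0.64 (Cox7b2) against Il17ra-Cre and -1.12 and -0.39 against Il17rc-Cre.

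The 11 common complex IV subunits all had log2 fold changes above 0 in both comparisons with Il17rb-Cre, with medians of 0.64 and 0.48. Without Il17ra-Cre replicates 1 and 2 the median against Il17ra-Cre was 0.17 with 9 of 11 above 0, and without replicate 3 it was 0.97. Without Il17rb-Cre replicate 1 the median against Il17rc-Cre was 0.32 with 10 of 11 above 0. Cox5a, a subunit on the matrix side, and Cox6c, a small membrane subunit, were called higher against Il17ra-Cre (0.71 ± 0.25 and 0.85 ± 0.30, edgeR adjusted p = 0.0433 and 0.0447). Cox7a2, the widely expressed form of subunit 7a (chromosome 9, 79755361 to 79759878, minus strand), was at 886, 660 and 617 CPM in Il17rb-Cre libraries, 363, 289 and 622 CPM in Il17ra-Cre libraries and 435, 321, 489 and 371 CPM in Il17rc-Cre libraries. It was higher in Il17rb-Cre than in Il17rc-Cre (0.84 ± 0.27, edgeR adjusted p = 0.0297) and did not pass against Il17ra-Cre (0.76, edgeR adjusted p = 0.0565), where replicate 3 fell among the Il17rb-Cre libraries. The call against Il17rc-Cre was lost without any single Il17rb-Cre replicate or without Il17rc-Cre replicate 1, 2 or 4 (adjusted p up to 0.157). Cox4i1 and Cox5b, at 998 ± 138 and 708 ± 105 CPM in Il17rb-Cre libraries (SD, n = 3), did not pass. Cox6a1, the widely expressed form of subunit 6a, was the highest of complex IV per kilobase at 1752 CPM per kb of principal transcript, and Cox8b the lowest at 0.390 CPM per kb.

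**Figure D3:**
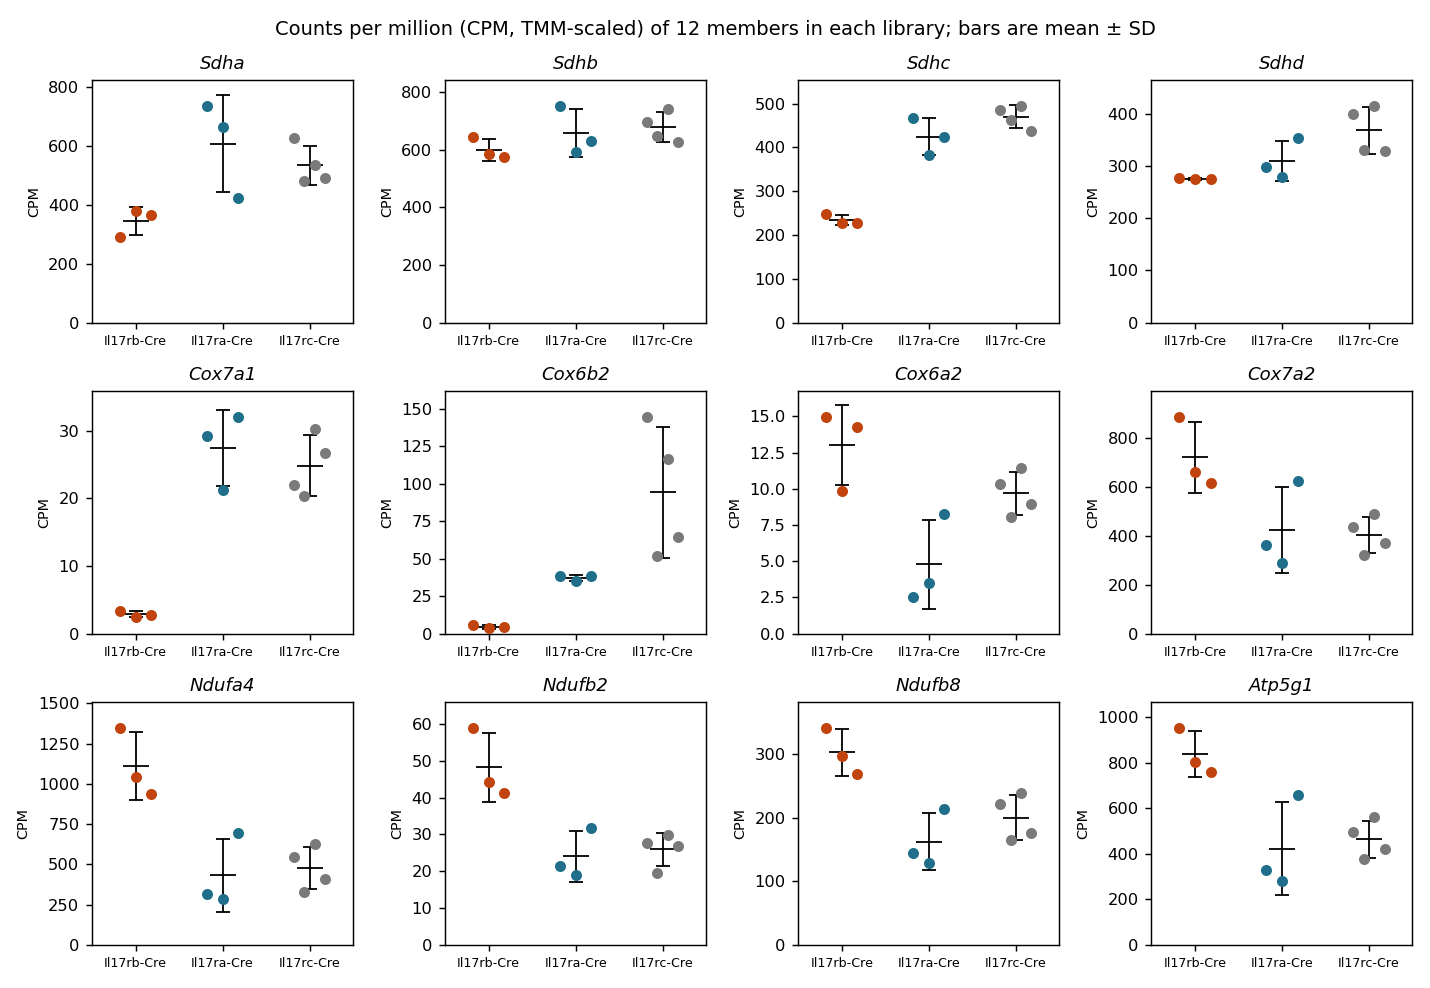
CPM (y axis, from 0) of 12 members in each library, by group (x axis). Points are libraries, and bars are means with SD (n = 3, 3 and 4). Sdhc and Cox7a1 in Il17rb-Cre, at 228 to 247 CPM and 2.52 to 3.36 CPM, lie below all libraries of the other groups, and in the panels of Cox7a2, Ndufa4, Ndufb2, Ndufb8 and Atp5g1 Il17ra-Cre replicate 3 lies above the other 2 libraries of its group.

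The balance within paralog families was measured inside each library, as the share of a family's CPM per kilobase of its principal transcript, which does not depend on the scaling between libraries. Cox7a1 made up 0.592% ± 0.043 of the Cox7a family in Il17rb-Cre libraries (SD, n = 3), 8.99% ± 1.75 in Il17ra-Cre libraries (n = 3) and 8.18% ± 0.98 in Il17rc-Cre libraries (n = 4). Cox6b2 made up 0.562% ± 0.071 of Cox6b1 and Cox6b2 in Il17rb-Cre, 6.43% ± 1.78 in Il17ra-Cre and 12.7% ± 4.02 in Il17rc-Cre libraries. Thus the widely expressed form carried most of each family in every group, and no Il17rb-Cre library overlapped another group for Cox7a1 or Cox6b2. Cox6a2 made up 0.887% ± 0.21, 0.435% ± 0.14 and 0.879% ± 0.023 of its family in Il17rb-Cre, Il17ra-Cre and Il17rc-Cre libraries.

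Paralogs outside the symbol rule gave further values of this kind. Cox4i2, the lung form of subunit 4 that is known to respond to low oxygen, made up 0.0446% ± 0.027 of Cox4i1 and Cox4i2 in Il17rb-Cre, 1.07% ± 0.26 in Il17ra-Cre and 3.71% ± 1.23 in Il17rc-Cre libraries. Ndufa4l2, a hypoxia-responsive relative of Ndufa4, made up 0.0197% ± 0.011 of its pair in Il17rb-Cre, 1.57% ± 0.42 in Il17ra-Cre and 7.40% ± 3.44 in Il17rc-Cre libraries. The mural and fibroblast-like marker sum ran in the same order, at 2.50 to 7.23 CPM in Il17rb-Cre, 71.7 to 75.2 CPM in Il17ra-Cre and 212 to 463 CPM in Il17rc-Cre libraries, and its part in these shares was not tested.

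**Figure D4:**
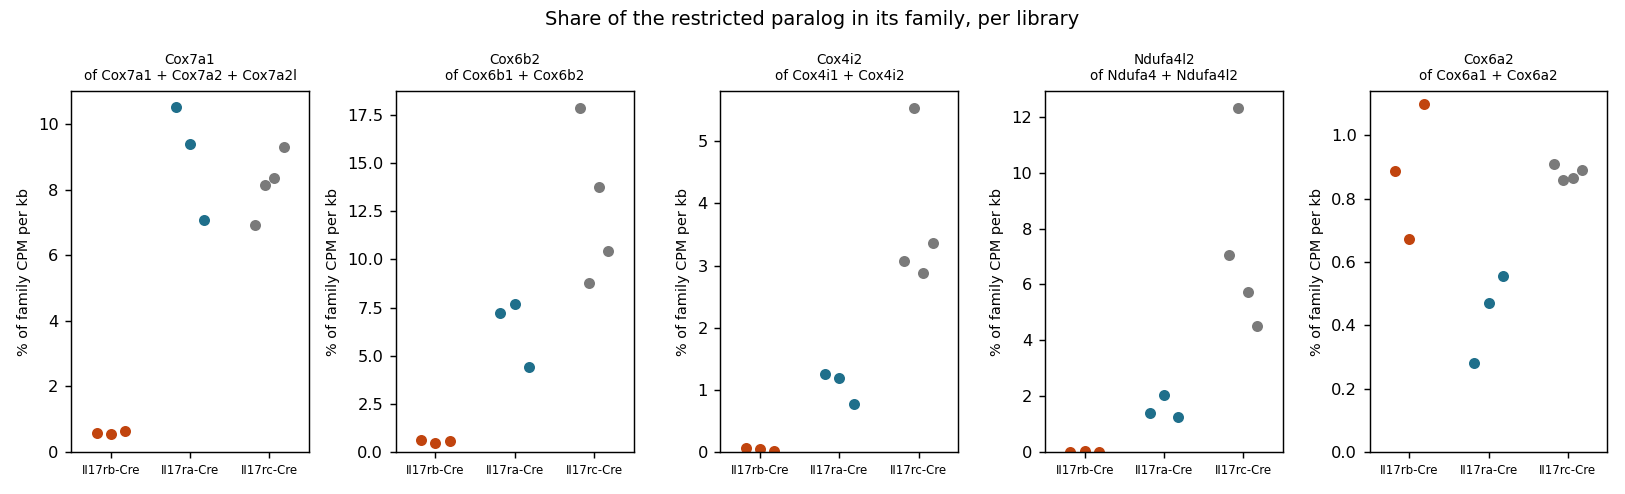
Share of the restricted paralog in its family (y axis, percent of CPM per kb of principal transcript, from 0) in each library, by group (x axis). Points are libraries. For Cox7a1, Cox6b2, Cox4i2 and Ndufa4l2 the Il17rb-Cre libraries lie near 0, with means of 0.592%, 0.562%, 0.0446% and 0.0197%, while Cox6a2 lies in the same range in Il17rb-Cre and Il17rc-Cre.

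The promoters of Cox7a1 and Cox6b2 are shown with those of their widely expressed relatives, since the shares of Cox7a1 and Cox6b2 in their families did not overlap between Il17rb-Cre and the other groups. Cox6b1 itself had log2 fold changes of 0.44 against Il17ra-Cre and 0.35 against Il17rc-Cre and did not pass (edgeR adjusted p = 0.204 and 0.275). The sequences are RefSeq's on GRCm38.p6, 250 bases before to 50 bases after the start, for Cox7a1 at chr7:30183921-30184220 (plus strand), Cox7a2 at chr9:79759804-79760103 (minus), Cox6b2 at chr7:4753045-4753344 (minus) and Cox6b1 at chr7:30626065-30626364 (minus). Uqcr11 at chr10:80406772-80407071 (minus) is added as a member that holds both motifs searched, which are in capitals.
Cox7a1: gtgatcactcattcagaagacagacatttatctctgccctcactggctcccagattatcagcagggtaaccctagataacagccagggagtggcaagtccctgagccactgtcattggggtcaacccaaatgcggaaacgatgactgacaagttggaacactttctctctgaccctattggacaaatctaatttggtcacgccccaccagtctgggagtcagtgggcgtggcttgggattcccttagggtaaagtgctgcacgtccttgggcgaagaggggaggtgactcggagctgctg
Cox7a2: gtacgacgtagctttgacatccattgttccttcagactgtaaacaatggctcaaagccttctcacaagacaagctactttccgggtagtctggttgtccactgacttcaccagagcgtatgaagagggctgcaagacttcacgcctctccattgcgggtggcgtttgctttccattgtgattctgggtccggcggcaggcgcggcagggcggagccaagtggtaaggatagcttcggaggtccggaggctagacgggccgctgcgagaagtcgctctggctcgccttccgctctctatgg
Cox6b2: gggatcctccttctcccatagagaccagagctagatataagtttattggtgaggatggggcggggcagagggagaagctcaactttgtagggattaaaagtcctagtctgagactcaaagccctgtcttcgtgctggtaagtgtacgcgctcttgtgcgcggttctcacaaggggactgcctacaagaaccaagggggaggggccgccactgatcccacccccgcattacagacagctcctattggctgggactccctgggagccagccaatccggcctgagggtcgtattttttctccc
Cox6b1: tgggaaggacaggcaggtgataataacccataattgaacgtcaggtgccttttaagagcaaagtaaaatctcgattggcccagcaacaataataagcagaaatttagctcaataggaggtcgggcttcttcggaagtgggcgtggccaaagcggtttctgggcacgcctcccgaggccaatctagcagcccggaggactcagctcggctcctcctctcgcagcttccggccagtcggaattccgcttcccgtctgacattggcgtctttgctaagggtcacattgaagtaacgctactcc
Uqcr11: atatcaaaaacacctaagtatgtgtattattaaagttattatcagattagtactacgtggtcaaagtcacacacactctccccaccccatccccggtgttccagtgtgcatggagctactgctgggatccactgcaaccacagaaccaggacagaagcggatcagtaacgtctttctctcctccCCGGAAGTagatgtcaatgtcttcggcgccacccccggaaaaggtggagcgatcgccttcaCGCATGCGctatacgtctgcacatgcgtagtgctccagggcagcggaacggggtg

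The restricted forms had fewer CG pairs in this window, 7 in Cox7a1 and 10 in Cox6b2, than their widely expressed relatives, 20 in Cox7a2 and 17 in Cox6b1, at a similar G and C content of 53.0%, 55.7%, 56.7% and 53.0%. The letters CGCATGCG, the core that the factor NRF1 binds and its own reverse complement, were found in promoters of 9 of 69 member symbols with an entry (13.0%), beside 559 of 27025 genes in all (2.07%). They lay in Ndufa8, Ndufa11, Uqcr11, Uqcrc1, Cox6a1, Atp5g2, Atp5j, Atp5k and Atp5l. The letters CCGGAAGT or ACTTCCGG, a core bound by ETS factors such as GABPA, were found in Ndufs3, Uqcr11, Uqcrh, Cox8a and Atp5h, 5 of 69 (7.25%), beside 1164 of 27025 genes (4.31%). None of these 13 members was called in a comparison. The median G and C content was 57.3% over members and 52.7% over all genes.

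Complex I, the largest complex, had 7 of 37 members called higher in Il17rb-Cre than in Il17ra-Cre and 3 called higher than in Il17rc-Cre, with medians of 0.48 and 0.25 and no member called lower. These are 18.9% and 8.11% of the complex, beside 16.4% and 17.7% of all tested genes, the first near that background and the other below it. The median of the complex against Il17ra-Cre was 0.12 without Il17ra-Cre replicates 1 and 2. Of the 29 accessory subunits, which surround the catalytic core, 29 had log2 fold changes above 0 against Il17ra-Cre and 27 against Il17rc-Cre. Without Il17ra-Cre replicates 1 and 2 the median of the 29 against Il17ra-Cre was 0.09 with 21 above 0, and without replicate 3 it was 0.78. Of the 7 core subunits, 5 were above 0 in each comparison.

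Ndufa4 (ENSMUSG00000029632, GRCm38 chromosome 6, 11900292 to 11907497, minus strand), named for complex I but now placed in complex IV, had the largest difference of the group. It was at 1347, 1043 and 939 CPM in Il17rb-Cre libraries, 318, 284 and 695 CPM in Il17ra-Cre libraries and 546, 328, 625 and 410.3 CPM in Il17rc-Cre libraries. All Il17rb-Cre libraries were above all others. The log2 fold change was 1.36 ± 0.36 against Il17ra-Cre (edgeR adjusted p = 0.0130) and 1.22 ± 0.33 against Il17rc-Cre (edgeR adjusted p = 0.0150). The first call was lost without Il17ra-Cre replicate 1 (0.0503) and the other without Il17rb-Cre replicate 1 (0.0754). Its value against Il17ra-Cre was 0.69 without Il17ra-Cre replicates 1 and 2.

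Ndufb2 and Ndufb8, accessory subunits of the membrane arm, were also called in both comparisons. Ndufb8 (chromosome 19, 44548572 to 44555440, minus strand) was at 341, 298 and 269 CPM in Il17rb-Cre libraries, 144, 129 and 213 CPM in Il17ra-Cre libraries and 221, 165, 238 and 177 CPM in Il17rc-Cre libraries. The Il17rb-Cre libraries were above all others, with log2 fold changes of 0.90 ± 0.22 against Il17ra-Cre (edgeR adjusted p = 0.00944) and 0.60 ± 0.21 against Il17rc-Cre (edgeR adjusted p = 0.0421). The first held in all 20 alternatives and the other in 9 of 21, lost for example without any single Il17rb-Cre replicate (adjusted p up to 0.195).

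Ndufb2 (chromosome 6, 39592574 to 39603382, plus strand), the lowest of complex I per kilobase at 7.34 CPM per kb, was at 59.0, 44.3 and 41.4 CPM in Il17rb-Cre libraries, 21.5, 18.9 and 31.8 CPM in Il17ra-Cre libraries and 27.7, 19.5, 29.8 and 26.9 CPM in Il17rc-Cre libraries. The Il17rb-Cre libraries were above all others, while Il17ra-Cre and Il17rc-Cre overlapped. Its log2 fold changes were 1.00 ± 0.25 (edgeR adjusted p = 0.00878), held in all 20 alternatives, and 0.89 ± 0.23 (edgeR adjusted p = 0.0106), lost without Il17rb-Cre replicate 1 (0.0714). Of its exons 7.94% overlap Braf and 2 predicted genes.

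The other complex I calls were against Il17ra-Cre. Ndufb4 was at 0.92 ± 0.30, Ndufa5 at 0.81 ± 0.29 and Ndufb5 at 0.67 ± 0.24 (edgeR adjusted p = 0.0329, 0.0498 and 0.0485), all accessory subunits. Ndufv2, a core iron-sulfur subunit of the NADH-oxidizing module, was at 0.51 ± 0.18 (edgeR adjusted p = 0.0459). These calls sat near the threshold. Those of Ndufa5, Ndufb5, Ndufv2, Cox5a and Cox6c were lost without Il17ra-Cre replicate 1 or 2, without any single Il17rb-Cre replicate and without Il17rc-Cre replicate 1 or 4, with adjusted p up to 0.137 to 0.168 over alternatives, and that of Ndufb4 without Il17ra-Cre replicate 1 or 2 or Il17rb-Cre replicate 1 or 2 (up to 0.124).

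The other core subunits described here did not pass. Ndufs1, the largest iron-sulfur subunit, was at 112, 118 and 122 CPM in Il17rb-Cre libraries, 179, 197 and 109 CPM in Il17ra-Cre libraries and 158, 136, 145 and 145 CPM in Il17rc-Cre libraries, below all Il17rc-Cre libraries but overlapping with Il17ra-Cre (log2 fold changes -0.46 and -0.31, edgeR adjusted p = 0.0939 and 0.216). Ndufv1, which binds NADH and FMN, had 0.14 and 0.20. Ndufs3, Ndufs7 and Ndufs8 ranged from 0.29 to 0.53 against Il17ra-Cre and from 0.05 to 0.43 against Il17rc-Cre. Ndufa2 was the highest of complex I per kilobase of merged exons at 616 CPM per kb, and Ndufa4 per kilobase of principal transcript at 1071 CPM per kb.

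In complex V, the ATP synthase, the catalytic head gave values near 0. Atp5b, the catalytic beta subunit, was at 2371, 2583 and 2523 CPM in Il17rb-Cre libraries, 2609, 2425 and 2263 CPM in Il17ra-Cre libraries and 2645, 2463, 2561 and 2324 CPM in Il17rc-Cre libraries, with overlap between all groups. It was the highest of complex V at 1293 CPM per kb of principal transcript, while the lowest was Atp5s at 19.7 CPM per kb, or Atp5l at 7.26 CPM per kb when merged exons are used. The log2 fold changes of Atp5b, of the alpha subunit Atp5a1 and of the gamma subunit Atp5c1 were 0.04, -0.22 and 0.05 against Il17ra-Cre and -0.00, -0.12 and -0.08 against Il17rc-Cre, and none passed. The delta subunit Atp5d, in the central stalk, was called higher against Il17ra-Cre (0.71 ± 0.23, edgeR adjusted p = 0.0302) at 1013 ± 82.4 CPM in Il17rb-Cre and 619.8 ± 193 CPM in Il17ra-Cre libraries (SD, n = 3 each). This call was lost without any single Il17rb-Cre replicate or Il17ra-Cre replicate 1 or 2 (adjusted p up to 0.104).

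The c ring, which rotates in the membrane, is made of a subunit whose mature protein is the same from Atp5g1, Atp5g2 and Atp5g3. Atp5g1 (chromosome 11, 96068852 to 96075670, minus strand) was at 951, 804 and 758 CPM in Il17rb-Cre libraries, 328, 282 and 656 CPM in Il17ra-Cre libraries and 493, 375, 563 and 419 CPM in Il17rc-Cre libraries. The Il17rb-Cre libraries were above all others, with log2 fold changes of 0.99 ± 0.30 against Il17ra-Cre (edgeR adjusted p = 0.0242) and 0.86 ± 0.28 against Il17rc-Cre (edgeR adjusted p = 0.0321). The first did not hold when replicate 1 or 2 of Il17ra-Cre or of Il17rb-Cre was left out (up to 0.0838), and the other when any single Il17rb-Cre library or replicate 1, 2 or 4 of Il17rc-Cre was left out (up to 0.134).

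Atp5g2 and Atp5g3 did not pass (0.30 and 0.18 against Il17ra-Cre, 0.29 and 0.02 against Il17rc-Cre). Within the family, Atp5g1 made up 10.7% ± 0.16 of CPM per kb in Il17rb-Cre, 6.26% ± 1.02 in Il17ra-Cre and 6.44% ± 0.19 in Il17rc-Cre libraries by principal transcript, and 25.1% ± 0.35, 15.7% ± 2.29 and 16.2% ± 0.40 by merged exons, so the level depends on the length used and the order of Il17rb-Cre above the others does not. The 4 tested peripheral stalk genes Atp5f1, Atp5h, Atp5j and Atp5o had medians of 0.24 and 0.15, and the small membrane subunits Atp5j2, Atp5k, Atp5l and Atp5mpl of 0.54 and 0.52, none passing. Without Il17ra-Cre replicates 1 and 2 the medians against Il17ra-Cre were 0.01 for the stalk, 0.06 for the small membrane subunits and -0.07 for the c ring, and without replicate 3 they were 0.43, 0.90 and 0.54. Without Il17rb-Cre replicate 1 the medians against Il17rc-Cre were 0.02, 0.23 and 0.07 in the same order. Atp5s, a coupling factor, was at 0.21 and -0.03. Of the Atp5o exons 47.9% overlap other genes.

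Between Il17ra-Cre and Il17rc-Cre, edgeR called 0 of 82 members higher, where 1.38% of all tested genes were called higher, and 0 lower, where 0.798% were called lower. An unadjusted p under 0.05 was reached by 2 members, Cox6b2 (log2 fold change -1.34, edgeR adjusted p = 0.0737) and Cox6a2 (-1.01, edgeR adjusted p = 0.191). DESeq2 called 2 members lower, limma voom with quality weights 41, and edgeR without Il17ra-Cre replicate 3 called 4. Of all tested genes, 5.53%, 9.18% and 6.38% were called lower in these fits. The median over members was -0.14, with 11 of 82 above 0, beside 0.03 over all tested genes. It was 0.16 without Il17ra-Cre replicates 1 and 2.

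The genes around the complexes were read from lists. The 13 mitochondrially encoded subunits were nearly absent from these ribosome pull-downs, taking no more than 0.0094% of any library, and 9 could be tested. Of these 3 were lower in Il17rb-Cre than in Il17ra-Cre and 2 than in Il17rc-Cre, beside 24.4% and 21.9% of all tested genes. The calls against Il17ra-Cre were lost when Il17ra-Cre replicate 1 or 2 or Il17rb-Cre replicate 1 or 3 was left out. Those against Il17rc-Cre were lost when replicate 1 or 3 of Il17rb-Cre was left out. The number lower against Il17ra-Cre was 5 of 9 without Il17ra-Cre replicate 3, beside 26.1% of all tested genes. Among those called with all libraries was mt-Co1 of complex IV at 11.4 ± 2.49 CPM in Il17rb-Cre, 23.9 ± 6.92 CPM in Il17ra-Cre and 22.2 ± 9.38 CPM in Il17rc-Cre libraries. Of 41 tested assembly factors, 13 were higher and 2 lower against Il17ra-Cre, and 10 higher and 3 lower against Il17rc-Cre. The higher calls are 31.7% and 24.4% of the list, beside 16.4% and 17.7% of all tested genes, and the lower calls 4.88% and 7.32%, beside 24.4% and 21.9%. With single Il17ra-Cre libraries left out, 3 to 23 were higher against Il17ra-Cre, the fewest without replicate 2. By replicate left out (1, 2, 3), that is 12.2%, 7.32% and 56.1% of the list, beside 12.1%, 11.8% and 20.9% of all tested genes. With single Il17rb-Cre libraries left out, 2 to 4 were higher against Il17rc-Cre. That is 4.88%, 9.76% and 9.76%, beside 11.6%, 10.5% and 10.7%. The excess was thus lost without Il17ra-Cre replicate 1 or 2, and against Il17rc-Cre without any single Il17rb-Cre library. Uqcc2, for complex III, had log2 fold changes of 1.47 ± 0.37 and 1.23 ± 0.34 (edgeR adjusted p = 0.0103 and 0.0165), and Foxred1, for complex I, had -1.37 ± 0.22 and -0.98 ± 0.20 (edgeR adjusted p = 0.000864 and 0.00403).

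Among the factors that mature complex II, Sdhaf3, which acts on the iron-sulfur subunit, was higher in both comparisons (1.40 ± 0.30 and 1.06 ± 0.28, edgeR adjusted p = 0.00450 and 0.0125). Sdhaf2, which helps to attach FAD to Sdha, was lower against Il17ra-Cre (-0.43 ± 0.12, edgeR adjusted p = 0.0181) and did not pass against Il17rc-Cre (-0.30, edgeR adjusted p = 0.0654). Of 18 import and outer membrane genes, 9 were higher and 0 lower against Il17ra-Cre by edgeR, and 6 higher and 1 lower against Il17rc-Cre. The higher calls are 50% and 33.3% of the list, beside 16.4% and 17.7% of all tested genes, and the lower calls 0% and 5.56%, beside 24.4% and 21.9%. With single Il17ra-Cre libraries left out, 4 to 14 were higher against Il17ra-Cre. By replicate left out (1, 2, 3), that is 33.3%, 22.2% and 77.8% of the list, beside 12.1%, 11.8% and 20.9% of all tested genes. With single Il17rb-Cre libraries left out, 1 to 2 were higher against Il17rc-Cre. That is 5.56%, 11.1% and 11.1%, beside 11.6%, 10.5% and 10.7%, near or below the background. Vdac1, the outer membrane channel, was at 739.9 ± 41.3 CPM in Il17rb-Cre, 446 ± 111 CPM in Il17ra-Cre and 513 ± 48.1 CPM in Il17rc-Cre libraries.

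Of the 17 TCA cycle genes, 3 were higher and 3 lower against Il17ra-Cre, and 1 higher and 4 lower against Il17rc-Cre. These are 17.6%, 17.6%, 5.88% and 23.5% of the list, near or below the 16.4%, 24.4%, 17.7% and 21.9% of all tested genes. With single Il17ra-Cre libraries left out, 1 to 4 were higher and 3 to 7 lower against Il17ra-Cre, and with single Il17rb-Cre libraries left out the higher call against Il17rc-Cre was lost and 3 were lower. Idh2, the NADP-dependent isocitrate dehydrogenase, was at 17.7 ± 0.62 CPM in Il17rb-Cre, 253 ± 95.4 CPM in Il17ra-Cre and 277 ± 56.1 CPM in Il17rc-Cre libraries, and Suclg2, the GTP-forming subunit of succinyl-CoA synthetase, at 2.65 ± 1.40, 52.0 ± 16.8 and 70.5 ± 20.7 CPM. Cs, citrate synthase, was also lower in both (-0.56 ± 0.14 and -0.88 ± 0.13, edgeR adjusted p = 0.00927 and 0.000581). Idh3b, of the NAD-dependent isocitrate dehydrogenase, was higher in both (0.51 ± 0.14 and 0.39 ± 0.13, edgeR adjusted p = 0.0159 and 0.0402), and Sucla2, the ATP-forming partner of Suclg2, was higher against Il17ra-Cre (0.46 ± 0.12, edgeR adjusted p = 0.0130). The summed level of this list was 4184 to 4431 CPM in Il17rb-Cre, 3998 to 4955 CPM in Il17ra-Cre and 4555 to 5171 CPM in Il17rc-Cre libraries.

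Of 8 tested carriers and related subunits outside the symbol rule, 1 was higher and 5 lower in each comparison with Il17rb-Cre. The lower calls are 62.5% of the list, beside 24.4% and 21.9% of all tested genes, and their number was 5 with each single Il17ra-Cre or Il17rb-Cre library left out of the comparison concerned. Atpif1, the inhibitor of the ATP synthase, was higher, at 327 ± 80.4 CPM in Il17rb-Cre, 98.2 ± 78.3 CPM in Il17ra-Cre and 103 ± 20.2 CPM in Il17rc-Cre libraries. Its call against Il17rc-Cre was lost without Il17rb-Cre replicate 1. The 5 lower ones were Cox4i2, Ndufa4l2 and the fatty acid electron carriers Etfa, Etfb and Etfdh, and Etfdh, which hands electrons to ubiquinone, was at 12.3 ± 2.84, 77.8 ± 24.5 and 83.1 ± 10.2 CPM. Ndufa4l2 was also lower in Il17ra-Cre than in Il17rc-Cre (-2.49 ± 0.40, edgeR adjusted p = 0.0313). Of 12 regulators of mitochondrial biogenesis, 2 were higher and 2 lower in each comparison with Il17rb-Cre, 16.7% each way beside 16.4% and 17.7% of all tested genes higher and 24.4% and 21.9% lower, with Esrra higher (1.23 ± 0.24 and 0.83 ± 0.22) and Gabpa lower (-1.67 ± 0.26 and -1.59 ± 0.25). With single Il17ra-Cre libraries left out, 1 to 3 were higher and 2 to 4 lower against Il17ra-Cre, and with single Il17rb-Cre libraries left out 0 to 1 were higher and 2 lower against Il17rc-Cre. Ppargc1a was at 28.3 ± 1.18 CPM in Il17rb-Cre, 27.3 ± 3.82 CPM in Il17ra-Cre and 53.2 ± 7.69 CPM in Il17rc-Cre libraries. Both lower groups passed against Il17rc-Cre (edgeR adjusted p = 0.00152 and 0.0367). The Ppargc1a call between Il17ra-Cre and Il17rc-Cre was lost without Il17ra-Cre replicate 1 or 2 and without any single Il17rb-Cre library.

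Most members have short transcripts, so length was set beside the results. By principal transcript, 72 of 82 tested members were in the lowest of 4 bins of length over all tested coding genes, where the median log2 fold change over all genes was -0.11 against Il17ra-Cre and -0.02 against Il17rc-Cre, beside 0.48 and 0.28 over the members. Within the members, Spearman's rho between length and log2 fold change was -0.31 and -0.26 over 82 genes that share the same libraries, and -0.24 and -0.11 with merged exon length. Sdha and Sdhc, with principal transcripts of 2900 and 3171 bases, were among the longer members. The part of length in the split between large and small subunits was not tested.

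**Figure D5:**
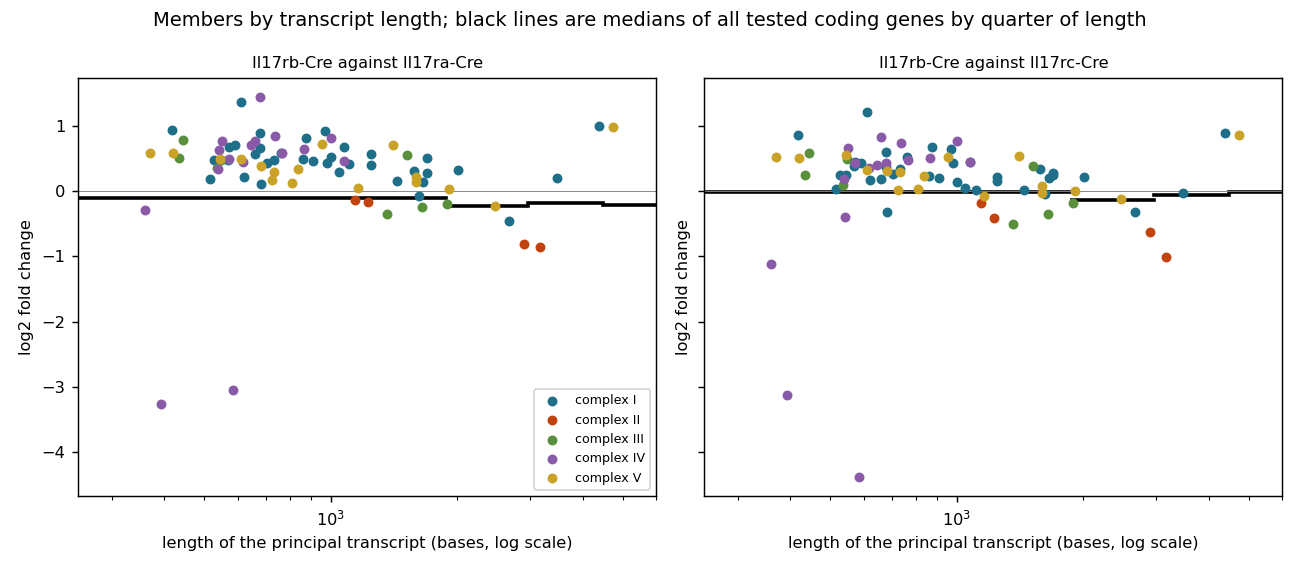
Log2 fold change (y axis) against length of the principal transcript (x axis, bases, log scale) for the 82 tested members, coloured by complex, in both comparisons with Il17rb-Cre. Black lines are the medians of all tested coding genes in 4 bins of length, -0.11 and -0.02 in the shortest. Of 49 members under 1000 bases, 46 lie above 0 against Il17ra-Cre and 44 against Il17rc-Cre, with Cox7a1, Cox6b2 and Cox8b below 0 in both panels and Cox7b2 and Ndufc2 in the panel of Il17rc-Cre, and Ndufb2 and Atp5g1 lie above 0 among the longest.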

How the data were processed

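Ribosome-bound RNA was measured in 10 libraries (3 Il17rb-Cre, 3 Il17ra-Cre, 4 Il17rc-Cre). The deposited table holds raw read counts per gene; the authors aligned reads with STAR 2.7.5c to GRCm38, per the submitters' processing notes, and libraries were made with a SMART-Seq v4 kit, per the labels' protocols. For read assignment, annotation release, trimming and strand setting, the sources used here give no statement. Of 55536 identifiers, 55536 matched GENCODE M21.

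Counts were tested with the quasi-likelihood F test of edgeR 4.0.16 (R 4.3.3) with TMM scaling, after filterByExpr by group (35235 genes removed, 20301 tested; 5 IL-17 receptor genes were kept regardless), in a fit over all 10 libraries. P-values were adjusted by Benjamini-Hochberg over all tested genes with a threshold of 0.05. The SE is the absolute log2 fold change divided by the square root of F. Common dispersion was 0.239. CPM are TMM-scaled. The test was checked on simulated counts. Libraries were put in groups by their titles.

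Alternatives were DESeq2 1.42.0, limma 3.58.1 voom with quality weights, other scalings and filters, replicate numbers as a block, and libraries left out. Principal transcript length, and list counts with libraries left out, were chosen after seeing the data, beside merged exon length. Promoters are RefSeq's on GRCm38.p6, found for 69 of 83 member symbols. Sdhc has no entry used here.

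The members, lists and tests were chosen with earlier results of these data known. Members named with values were core subunits and restricted paralogs, up to 8 called members with the largest change per direction and comparison with a mean log2 CPM of 3 or more, and the highest and lowest of each complex per kilobase. Other members named, among them Cox6c, Ndufa5, Ndufb5, the small complex III subunits and motif holders, were chosen after their values were seen. The values of 1 core subunit of complex I are not reported here.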

Additional observations from a re-analysis of the deposited data

How the results depend on the processing

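Cox7a1, Cox6b2 and Sdhc kept their calls in both comparisons with Il17rb-Cre in every alternative with a test, whereas counts of called members moved. Against Il17ra-Cre, 12 were higher and 4 lower; higher calls numbered 23 with DESeq2, 60 with limma voom, 21 with upper quartile scaling, 7 without a filter, 4 with only the 2 groups fitted and 3 to 51 with a library left out, and lower calls 9 with limma voom and 3 to 7 with a library left out. The median was 0.064 without Il17ra-Cre replicates 1 and 2. Against Il17rc-Cre, 5 were higher and 6 lower. Higher calls numbered 12 with limma voom, 10 with upper quartile scaling, 2 without a filter and 11 with only the 2 groups. Of all tested genes, 27.5%, 20.5%, 9.17% and 19.6% were called higher in these fits. With a library left out 0 to 18 were higher, the most without Il17ra-Cre replicate 3 (20.3% of all tested genes). Lower calls numbered 11 with limma voom, 11 with only the 2 groups and 3 without Il17rc-Cre replicates 1 and 3. In these fits 26.2%, 27.2% and 18.3% of all tested genes were called lower. With a library left out 3 to 7 members were lower, the most without Il17ra-Cre replicate 3 (23.1% of all tested genes). Between Il17ra-Cre and Il17rc-Cre, lower calls numbered 2 with DESeq2 and 41 with limma voom, beside 5.53% and 9.18% of all tested genes. With a library left out 0 to 4 were lower, the most without Il17ra-Cre replicate 3 (6.38% of all tested genes). The median between these groups was -0.554 with limma voom and 0.162 without Il17ra-Cre replicates 1 and 2. The cause of these moves was not tested. Upper quartile scaling shifted the median of all genes by 0.132 against Il17ra-Cre and by 0.104 against Il17rc-Cre. Among log2 fold changes of named members, none of 525 alternative values of called members changed sign, and 160 of 1918 of members that were not called did, Sdhb with upper quartile scaling among them.

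Whether replicate numbers pair the libraries was left unsettled, since so few deviations, which sum to 0 within a group, cannot decide it. Same-numbered deviations correlated at -0.05, 0.07 and -0.17 between Il17rb-Cre and Il17ra-Cre, where different numbers gave -0.18 to 0.15. Between Il17rb-Cre and Il17rc-Cre they correlated at 0.02, -0.00 and -0.11, with -0.07 to 0.10 for different numbers. Between Il17ra-Cre and Il17rc-Cre they correlated at -0.11, 0.22 and 0.25, with -0.27 to 0.17 for different numbers. With the number as a replicate block, 12 members were higher and 4 lower against Il17ra-Cre, beside 15.6% and 22.0% of all tested genes. Against Il17rc-Cre 2 were higher and 3 lower, beside 13.1% and 18.3%. With the number in the library name as the block, 7 were higher and 4 lower against Il17ra-Cre, beside 14.2% and 21.3%. Against Il17rc-Cre 4 were then higher and 3 lower, beside 12.8% and 18.2%. Cox7b2 and Cox8b were at most at 1.50 and 0.432 CPM in any library, and the part of depth in their values was not tested.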
